A study of Mus musculus with 6 samples.

Results

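The genes described here encode the autophagy machinery and the enzymes that attach LC3 to membranes, measured as RNA in mouse bone marrow stromal cells that had or had not been fed dying cells. They are 45 genes, chosen by symbol from a list drawn up with earlier results of these data known. Every one was found once among the 53735 features of the count table. The libraries came from wild-type cells labelled as mesenchymal stromal cells, with 3 libraries of control cultures and 3 of cultures given apoptotic thymocytes for 24 h. Per the labels, the cells were sorted from crushed and digested bone as negative for haematopoietic lineage markers, CD45 and CD31 and positive for CD51, expanded at 2% oxygen and used after a few passages. Each fed well received 5000000 dye-labelled thymocytes at 5% oxygen, and cells carrying the dye were sorted from it. Control wells received no thymocytes and were sorted as well, and the labels do not state the oxygen of the control wells over the same 24 h. Feeding, the selection of cells that carried the dye and any such difference in handling cannot be told apart in these libraries. The strain, sex and age of the mice are not stated in the labels.

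Autophagy encloses cell material in a double membrane and delivers it to the lysosome. The ULK kinase complex starts the process, a lipid kinase complex built on Beclin 1 marks the membrane with a phosphoinositide, and WIPI, ATG2 and ATG9 proteins bring lipid to the growing sheet. Enzymes that resemble those of ubiquitin conjugation then attach LC3 and GABARAP proteins to lipid, and cargo receptors such as p62 bind both LC3 and the cargo. Part of this machinery, above all the conjugation enzymes, also places LC3 on phagosomes that hold engulfed dying cells, a process called LC3-associated phagocytosis that does not need the ULK complex.

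Fed cells held less RNA for much of the front end of autophagy and for several cargo receptors. Of the 45 genes, all of which had enough reads to test, 19 fell and 1 rose in fed cells, while 25 were not called by edgeR's quasi-likelihood test at an adjusted p under 0.05. The 20 called genes are 44.4% of the members, and 39.5% of the 13092 genes tested were called. The lower calls were 42.2% of the members against 19.0% of all genes tested, and the higher call 2.22% against 20.5%. The members were chosen with earlier results of these data known, so these shares describe the list and are not a test. No fall was called among the 6 conjugation genes, which in so small a group is near the 19.0% of all genes tested. With library totals in place of TMM scaling 16 members fell and 4 rose, and by DESeq2 16 fell and 0 rose. The number higher also turned on single libraries, with 0 called when fed replicate 2 was left out and likewise for control replicate 1, 2 when fed replicate 1 was left out and likewise for control replicate 2, and 3 when it was fed replicate 3. The median log2 fold change was -0.07 over the members and -0.01 over all genes tested. Every change was small. The 20 called members changed by 0.11 to 0.44 on the log2 scale, the deepest fall was 1.36-fold, and none of them reached 1.5-fold. Falls of this size were usual in these data, with a median log2 fold change of -0.27 both for the members called lower and for all genes called lower. Of the 5175 genes called among all tested, 694 passed 1.5-fold, and a group of 20 is small for such a comparison. The fed and control libraries did not overlap for 22 members that were lower and 3 that were higher, where 24.0% and 25.1% of all genes tested stood apart in these directions.

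**Figure D1:**
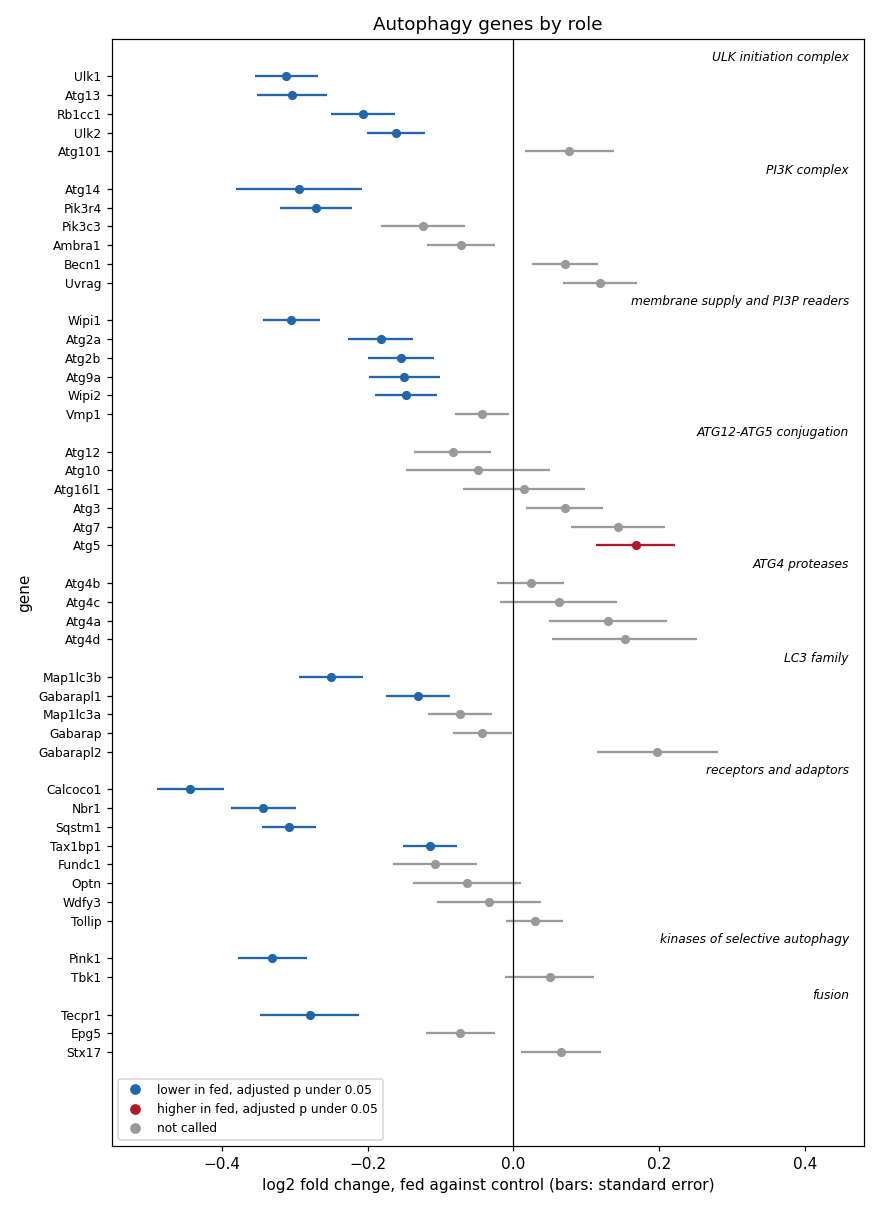
Log2 fold change of each of the 45 genes in fed against control cells (x axis, points) with its standard error (bars), grouped by role on the y axis and coloured by call. The initiation genes other than Atg101, the membrane supply genes and several receptors lie to the left of 0, down to -0.44 for Calcoco1. No ATG4 or conjugation gene was called lower, which in groups of 4 and 6 is near the 19.0% of all genes tested.

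Library totals lay between 19069074 and 22410047 counts, and the members held between 0.286% and 0.313% of them. Counts per gene and library ran from 151 to 8228, so that counting alone gave an error of 8.14% at the lowest and 1.10% at the highest. The summed level of the members, in CPM (counts scaled to a common library size after TMM normalization), was 3143, 3170 and 3119 in the control libraries and 2841, 2867 and 2871 in the fed libraries. Every fed library was below every control library, a difference of -9.03% between the group means. All 10 stromal markers were detected. In fed cells 5 of them were called lower and none higher, beside 19.0% and 20.5% of all genes tested. Prrx1, Itgav, Vcam1, Lepr and Cxcl12 were not called. The summed level of the 10 was 36200 to 37700 CPM in control and 31800 to 33700 CPM in fed libraries. Most of that sum came from Col1a1, with means of 19408 CPM in control and 17818 CPM in fed cells, and Col1a2, with 12550 and 11002 CPM. Of 13 thymocyte markers 1, Lck, had enough reads to test. It had 8, 11 and 15 counts in control and 7, 4 and 12 in fed libraries and was not called (log2 fold change -0.62, edgeR adjusted p = 0.269). Cd3g, Rag2, Ptcra and Cd2 were at 0 in all 6 libraries. Of the 9 at 0 in every control library, 5 had counts in fed libraries, among them Cd8b1 with 3, 2 and 2 counts, Dntt with 5, 1 and 3 and Cd8a with 1, 1 and 3. Rag1 had 0, 2 and 1 counts in control and 7, 6 and 12 in fed libraries. In the other direction, Themis had 1, 1 and 1 counts in control and 0, 0 and 1 in fed libraries. Cd3d had 0, 1 and 0 counts in control and 0 in every fed library. The summed level of the thymocyte markers was 0.417 to 0.895 CPM in control and 0.644 to 1.45 CPM in fed libraries. Of 9 markers of macrophages and other leukocytes 4 could be tested. Among these 2 were called higher and none lower, beside 20.5% and 19.0% of all genes tested. They were Lyz2 (log2 fold change 1.17, edgeR adjusted p = 1.61e-06) and Cd14 (0.32, 0.0490), while Csf1r and Cd68 were not called. The summed level of the leukocyte markers was 13.8 to 15.3 CPM in control and 19.7 to 21.2 CPM in fed libraries. Of 6 endothelial markers 1 could be tested and was not called, Cdh5, Tie1 and Emcn were at 0 throughout, and the summed level was 2.83 to 3.49 CPM in control and 2.67 to 3.30 CPM in fed libraries. The part of the stromal, thymocyte and leukocyte markers in the changes below was not tested, and in bulk RNA fewer cells of a kind and less RNA per cell cannot be told apart.

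Promoter sequence was examined for the E-box CACGTG, the core that TFEB and TFE3 read in genes of lysosomes and autophagy and that MYC-family and clock factors also read. Windows from 250 bases before to 50 bases after a RefSeq start (GRCm38.p6) were found for 37 of the 45 genes, and the motif reads the same on both strands. It was present for 5 of the 37, or 13.5%, against 8.09% of the 27025 genes in the table. Of the 18 matched genes that fell in fed cells 1 held it, Atg14, or 5.56%. Of the 19 others 4 did, or 21.1%, among them 3 of the LC3 and ATG12 conjugation genes. This split rests on few genes and was not tested. The stretches around these matches are shown with the E-box in capitals, each 5′ to 3′ on the strand of the gene.
Atg3, chr16:45158714-45158783, plus strand: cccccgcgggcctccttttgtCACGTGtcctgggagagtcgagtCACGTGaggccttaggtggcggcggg
Atg5, chr10:44268275-44268338, plus strand: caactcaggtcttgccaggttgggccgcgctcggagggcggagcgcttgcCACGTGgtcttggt
Atg7, chr6:114670934-114670997, plus strand: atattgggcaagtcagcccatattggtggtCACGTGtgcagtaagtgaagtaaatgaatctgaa
Atg14, chr14:47568426-47568489, minus strand: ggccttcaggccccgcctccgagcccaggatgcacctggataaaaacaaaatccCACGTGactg
Tbk1, chr10:121586780-121586843, minus strand: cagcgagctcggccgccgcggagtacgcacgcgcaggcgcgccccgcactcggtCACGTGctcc

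The stretches of Atg14 and Tbk1 cross the start, and the RefSeq starts used for Atg7 and Atg14 lie well inside the longer GENCODE gene models. The second E-box of Atg3 sits in the longer palindrome TCACGTGA, which 1.12% of all genes in the table held and 1 of the 37 members did. For comparison, the bases just upstream of the start are shown for the member with the smallest adjusted p among the receptors and for the gene of p62, both of which fell and hold no E-box in the window.
Calcoco1, chr15:102722179-102722258, minus strand: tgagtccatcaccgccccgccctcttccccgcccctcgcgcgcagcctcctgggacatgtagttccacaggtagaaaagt
Sqstm1, chr11:50210821-50210900, minus strand: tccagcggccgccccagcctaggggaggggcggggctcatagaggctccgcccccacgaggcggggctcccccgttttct

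The forkhead core GTAAACA, read by FOXO factors and searched on both strands, was in none of the 37 member windows and in 4.05% of all genes in the table. These matches describe letters in a window and not bound sites. Among the factors that read such motifs, Tfeb rose from 6.78 ± 0.660 to 8.71 ± 0.423 CPM (SD, n = 3; edgeR adjusted p = 0.00788) and Tfe3 fell by 0.11 on the log2 scale (adjusted p = 0.0465), while Foxo3 fell from 70.1 ± 2.50 to 56.4 ± 2.01 CPM (1.1e-05) and Foxo1 rose by 0.24 (0.00247). Mitf, a relative of Tfeb and Tfe3, was not called (log2 fold change -0.22 ± 0.110, edgeR adjusted p = 0.125). These factors belong to the second list of autophagy genes described below and are counted there. They were singled out after their values were seen.

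In the initiation complex 4 of 5 genes fell, or 80.0% beside 19.0% of all genes tested. The median log2 fold change over the 5 was -0.21. Ulk1, the kinase that starts autophagosome formation (chr5:110784488-110810097, GRCm38), had 73.7, 74.5 and 75.0 CPM in control and 58.5, 58.1 and 63.2 CPM in fed libraries. All fed libraries were clearly below any control library, a log2 fold change of -0.31 ± 0.044 (SE, edgeR adjusted p = 9.54e-06). Ulk2, its close relative, had 100.5, 104 and 102 CPM in control and 95.1, 88.8 and 90.8 CPM in fed libraries, a smaller fall of 0.16 on the log2 scale (adjusted p = 0.0029).

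Atg13, the subunit that links the kinase to the rest of the complex (chr2:91674618-91710576), had 46.8, 48.4 and 49.1 CPM in control and 39.3, 37.7 and 39.9 CPM in fed libraries. The groups stood apart by -0.30 ± 0.048 on the log2 scale (adjusted p = 4.32e-05). The scaffold gene Rb1cc1, which encodes FIP200, had 87.8, 82.4 and 82.5 CPM in control and 74.9, 74.8 and 69.6 CPM in fed libraries, a fall of 0.21 on the log2 scale (adjusted p = 0.000784). Atg101, which stabilizes ATG13, was the exception at 0.08 ± 0.061 (adjusted p = 0.342).

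Within a library, the share of Ulk1 among the counts of Ulk1 and Ulk2 was 42.3%, 41.6% and 42.4% in control and 38.1%, 39.6% and 41.0% in fed libraries. The control shares were all above the fed shares, and the means differed by -2.55 percentage points. An exact two-sided permutation test gave p = 0.10, the smallest that 3 libraries against 3 allow, and 0.15 after adjustment over the 3 paralogue shares compared.

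The lipid kinase complex was split, with 2 of 6 genes lower and none higher. That is 33.3% lower beside 19.0% of all genes tested, which are close in a group of 6. Pik3r4, the regulatory subunit VPS15 (chr9:105642978-105687657), had 61.3, 54.9 and 55.3 CPM in control and 48.3, 46.9 and 47.1 CPM in fed libraries. It fell by 0.27 ± 0.050 on the log2 scale (edgeR adjusted p = 0.0002), and its fed libraries lay close together. Atg14, which directs the complex to autophagy, fell from 13.1 ± 0.425 to 10.7 ± 1.20 CPM (adjusted p = 0.0101), a call lost without fed replicate 2 (0.062) or fed replicate 3 (0.0591).

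Becn1, the Beclin 1 core of both forms of the complex, had 77.7, 80.6 and 84.1 CPM in control and 80.4, 89.6 and 84.4 CPM in fed libraries. These ranges overlapped and the gene was not called (log2 fold change 0.07 ± 0.045, adjusted p = 0.228). Pik3c3, the catalytic subunit VPS34, stood at -0.12 ± 0.058 on the log2 scale (adjusted p = 0.0982) and Ambra1, a Beclin 1 partner that regulates the complex, at -0.07 ± 0.046 (0.232). Uvrag, which takes the place of ATG14 in the form that acts on endosomes, had 0.12 ± 0.050 (0.0678). It was called higher with library totals only (0.0217), without fed replicate 3 (0.0459) or with a block for the replicate number (0.0388).

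Of the 6 genes for membrane supply and the reading of the lipid mark, 5 fell and none rose. That is 83.3% lower beside 19.0% of all genes tested. Wipi1, which binds the phosphoinositide on the growing membrane (chr11:109573331-109611967), had 178, 167 and 172 CPM in control and 144, 135 and 139.7 CPM in fed libraries. Its log2 fold change was -0.30 ± 0.039 (edgeR adjusted p = 3.45e-06), the groups standing well apart. Wipi2, the family member that recruits ATG16L1, had 85.6, 77.8 and 81.9 CPM in control and 74.8, 73.5 and 73.1 CPM in fed libraries. It fell by 0.15 (adjusted p = 0.00892), but leaving out control replicate 1 ended the call (0.0564).

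The lipid transfer gene Atg2a had 58.8, 56.9 and 58.8 CPM in control and 53.2, 50.2 and 50.5 CPM in fed libraries, a fall of 0.18 (adjusted p = 0.00282). Its paralogue Atg2b fell by 0.15 (adjusted p = 0.0101), lost without control replicate 2 (0.0605). Atg9a, the lipid scramblase of the vesicles that seed the membrane, fell by 0.15 (adjusted p = 0.0184) and was the least secure of the group. Leaving out control replicate 2 (0.0909) or 3 (0.0543) or fed replicate 1 (0.0837) ended its call, as did DESeq2 (0.0679) and library totals only (0.0653). Vmp1, a scramblase of the endoplasmic reticulum, was not called at -0.04 ± 0.037 (adjusted p = 0.374).

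**Figure D2:**
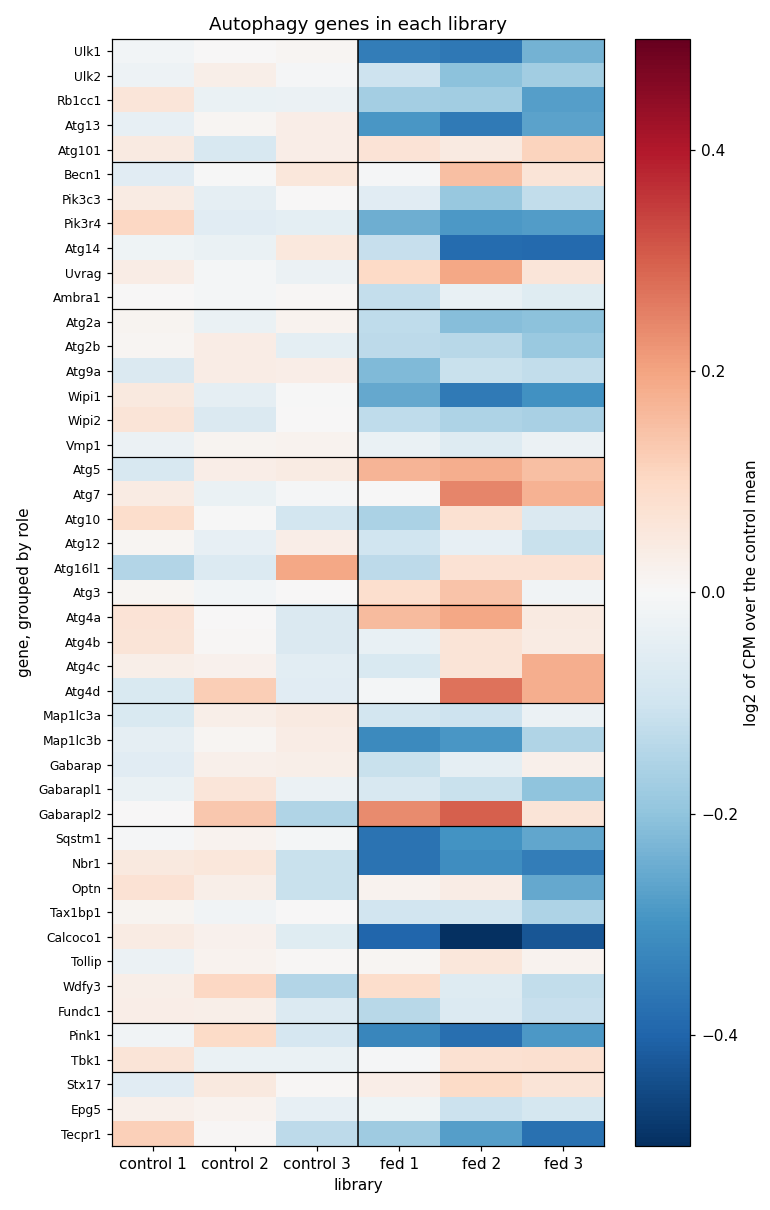
Log2 of CPM over the mean of the control libraries for each of the 45 genes (rows, grouped by role in the order of the text) in each library (columns), with blue for lower and red for higher. The rows of Ulk1, Atg13, Wipi1, Sqstm1, Nbr1, Calcoco1 and Pink1 are blue in all 3 fed libraries, and the rows of the conjugation and ATG4 genes are pale or red in most of them.

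Of the 6 conjugation genes 1 rose and none fell, or 16.7% higher and 0% lower beside 20.5% and 19.0% of all genes tested. In a group of 6 these shares are near those of all genes. The median log2 fold change of the 6 was 0.04. Atg5, which joins ATG12 in the complex that directs LC3 to membranes (chr10:44268358-44364291), had 29.1, 31.4 and 31.6 CPM in control and 34.5, 34.8 and 34.0 CPM in fed libraries. All fed libraries were higher, by 0.17 ± 0.054 on the log2 scale (edgeR adjusted p = 0.0182). Its adjusted p was 0.0993 without control replicate 1, 0.0611 without fed replicate 2 and 0.0748 by DESeq2, so that the call was lost in each.

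Atg7, the activating enzyme for both ATG12 and LC3, had 26.8, 25.4 and 25.9 CPM in control and 26.0, 30.8 and 29.4 CPM in fed libraries. Fed replicate 1 lay within the control range, and the log2 fold change of 0.14 ± 0.064 was not called (adjusted p = 0.0831), although it was called higher without fed replicate 1 (0.013) and with library totals only (0.0358). Atg16l1, which anchors the complex to the membrane and carries the part needed for LC3 on phagosomes, had 21.3, 22.4 and 26.9 CPM in control and 21.5, 24.7 and 24.8 CPM in fed libraries. Its fed libraries lay within the control range (0.01 ± 0.084, adjusted p = 0.906), and control replicate 3 held the highest value.

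Atg3, which passes LC3 to lipid and holds a pair of E-boxes in the stretch printed above, had 38.4 ± 0.294 CPM in control and 40.4 ± 2.24 CPM in fed cells (SD, n = 3; edgeR adjusted p = 0.307). Atg12, the ubiquitin-like partner of ATG5, stood at -0.08 ± 0.053 on the log2 scale (adjusted p = 0.23) and Atg10, the enzyme that joins them, at -0.05 ± 0.099 (0.724). The 4 ATG4 proteases trim LC3 proteins before conjugation and free them from lipid afterwards. All had log2 fold changes above 0, from 0.02 for Atg4b to 0.15 for Atg4d. None was called, or 0% beside 39.5% of all genes tested, which are close in a group of 4. Leaving out a single library turned the direction of Atg4b and of Atg4c. Counts were low for Atg4d, at 8.54 ± 0.661 CPM in control and 9.49 ± 0.929 CPM in fed cells (SD, n = 3), and the SE of its log2 fold change was 0.10.

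The LC3 and GABARAP genes differed among themselves, with 2 of 5 lower and none higher. That is 40.0% lower beside 19.0% of all genes tested, which are close in a group of 5. Map1lc3b, the LC3 form most used as a marker of autophagosomes (chr8:121590361-121598760), had 121, 126 and 128 CPM in control and 100.2, 102 and 112 CPM in fed libraries. It fell by 0.25 ± 0.044 on the log2 scale (edgeR adjusted p = 0.000141). Map1lc3a, which encodes a closely related LC3, had 71.4, 76.8 and 77.8 CPM in control and 70.7, 70.2 and 73.7 CPM in fed libraries, with overlapping groups (-0.07 ± 0.044, adjusted p = 0.199).

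The share of Map1lc3a among the counts of both LC3 genes was 37.1%, 37.9% and 37.8% in control and 41.4%, 40.8% and 39.6% in fed libraries. It was higher in every fed library, by 2.96 percentage points between the means. The exact two-sided permutation test gave p = 0.10, the smallest possible, and 0.15 after adjustment.

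Gabarapl1 had 82.1, 87.6 and 82.2 CPM in control and 79.4, 77.8 and 73.0 CPM in fed libraries. The fall of 0.13 on the log2 scale (adjusted p = 0.0224) was no longer called when control replicate 2 (0.144) or fed replicate 3 (0.135) was left out, by DESeq2 (0.0742) or with library totals only (0.0809). Gabarap, the founding member of its subfamily, had 342, 363 and 363 CPM in control and 329, 345 and 362 CPM in fed libraries, which overlapped (-0.04 ± 0.040, adjusted p = 0.424).

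Gabarapl2, also called GATE-16, had 14.1, 15.5 and 12.7 CPM in control and 16.6, 17.3 and 14.8 CPM in fed libraries. Fed replicate 3 lay within the control range, and the log2 fold change of 0.20 ± 0.083 was not called (adjusted p = 0.0652). It was called higher without control replicate 2 (0.0292) or fed replicate 3 (0.0264), with library totals only (0.0302) and with no filter on low counts (0.0402). The share of Gabarapl1 among the counts of the 3 GABARAP genes was 18.7%, 18.8% and 17.9% in control and 18.7%, 17.7% and 16.2% in fed libraries, which overlapped (exact permutation p = 0.20, also 0.20 after adjustment).

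**Figure D3:**
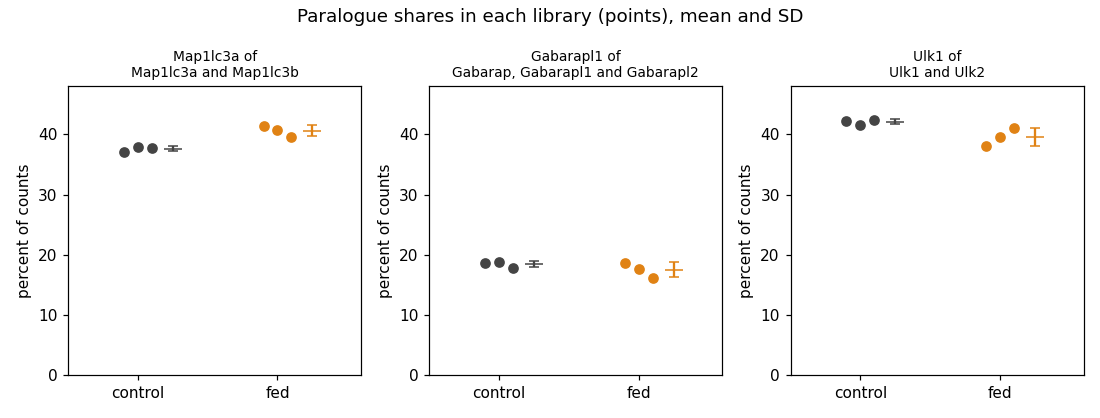
Percent of the counts of a paralogue group that belong to the named gene (y axis, from 0) in control and fed libraries (points), with mean and SD beside them. The share of Map1lc3a is 37.1% to 37.9% in control and 39.6% to 41.4% in fed libraries, and the share of Ulk1 is 41.6% to 42.4% against 38.1% to 41.0%.

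Of the 8 cargo receptors and adaptors 4 fell and none rose, or 50.0% lower beside 19.0% of all genes tested. Calcoco1, a receptor for parts of the endoplasmic reticulum and Golgi (chr15:102706777-102722178), had the smallest adjusted p and the deepest fall of all 45 genes. It had 69.1, 68.2 and 64.4 CPM in control and 51.1, 47.4 and 50.0 CPM in fed libraries. The groups were far apart, with a log2 fold change of -0.44 ± 0.046 (edgeR adjusted p = 2.19e-07).

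Sqstm1, which encodes the ubiquitin-binding receptor p62 (chr11:50199366-50210827), had 294, 299 and 293 CPM in control and 229, 240 and 247 CPM in fed libraries. Control libraries lay close together, and the log2 fold change was -0.31 ± 0.037 (adjusted p = 1.49e-06). Nbr1, a receptor of similar architecture that works with p62 (chr11:101552149-101581951), had 144, 145 and 129 CPM in control and 108, 112 and 109.6 CPM in fed libraries, a fall of 0.34 ± 0.044 (adjusted p = 3.67e-06). Even its lowest control library, replicate 3, was above the highest fed library.

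Tax1bp1, another ubiquitin-binding receptor, fell from 129 ± 1.40 to 119.5 ± 2.98 CPM (adjusted p = 0.0188), a call lost without fed replicate 3 (0.0987), by DESeq2 (0.0574), with library totals only (0.0919) and with no filter on low counts (0.0541). The receptors and adaptors that were not called had log2 fold changes of -0.11 for Fundc1, a mitophagy receptor of the outer membrane, -0.06 for the ubiquitin receptor Optn, -0.03 for Wdfy3, the large scaffold ALFY, and 0.03 for Tollip, an adaptor that binds ubiquitin. Fundc1 had no overlap between the groups but an adjusted p of 0.148. The same held for other members that were not called, Pik3c3 and Ambra1 on the lower side and Uvrag and Atg101 on the higher side.

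Pink1, the kinase that marks damaged mitochondria (chr4:138313409-138326307), had 74.2, 80.2 and 70.8 CPM in control and 59.8, 57.9 and 61.5 CPM in fed libraries. All fed libraries were below the control range, with a log2 fold change of -0.33 ± 0.048 (edgeR adjusted p = 1.4e-05). Tbk1, which phosphorylates p62 and optineurin, had 0.05 ± 0.061 (adjusted p = 0.548).

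Among the 3 genes of fusion with the lysosome, Tecpr1 alone fell, or 33.3% beside 19.0% of all genes tested. Tecpr1, which binds ATG5 on mature autophagosomes and lysosomes, had 34.4, 31.8 and 28.9 CPM in control and 28.0, 26.2 and 24.4 CPM in fed libraries. The lowest control and the highest fed library were close, and the fall was 0.28 ± 0.068 on the log2 scale (edgeR adjusted p = 0.00265). Stx17, the SNARE of the autophagosome, had 0.07 ± 0.055 (adjusted p = 0.369) and Epg5, a tether for fusion, -0.07 ± 0.047 (0.235).

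**Figure D4:**
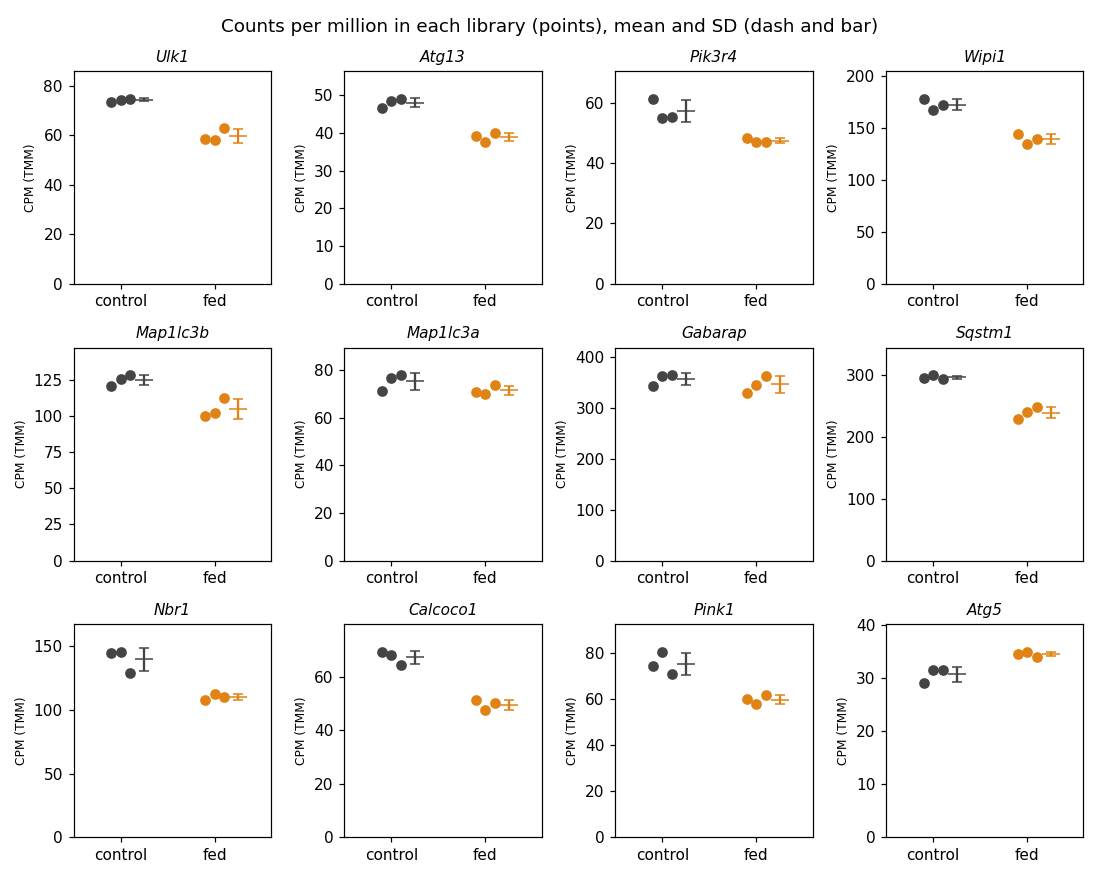
CPM after TMM scaling (y axes, from 0) of 12 genes in each control and fed library (points), with mean and SD beside them. Fed libraries lie below all control libraries for 9 of these genes, overlap with them for Map1lc3a and Gabarap, and lie above them for Atg5.

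Per length, in CPM per kb of the union of GENCODE M21 exons, the level in control cells ran from 1.18 for Atg4d to 193 for Gabarap, with a median of 7.82 over the 45 genes. Sqstm1 followed Gabarap with 88.0 ± 0.889 CPM per kb, then Map1lc3a with 63.8 ± 2.94, Gabarapl1 with 41.7 ± 1.56, Wipi1 with 39.1 ± 1.27, Vmp1 with 32.5 ± 0.607, Pink1 with 28.1 ± 1.79 and Nbr1 with 20.3 ± 1.32 (SD, n = 3). Of the 44 pairs of neighbours in this order, the gap exceeded the sum of both SDs in 19, and Gabarapl1 and Wipi1 were among the 25 pairs that it did not separate. Gabarap and Sqstm1 together held 19.6% to 21.2% of the members' counts in each library. A union of exons counts every annotated isoform, so a gene with a long minor isoform has a lower value per kb than its main transcript would give. The use of isoforms was not measured, also not for Map1lc3b with its 7517 exon bases.

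**Figure D5:**
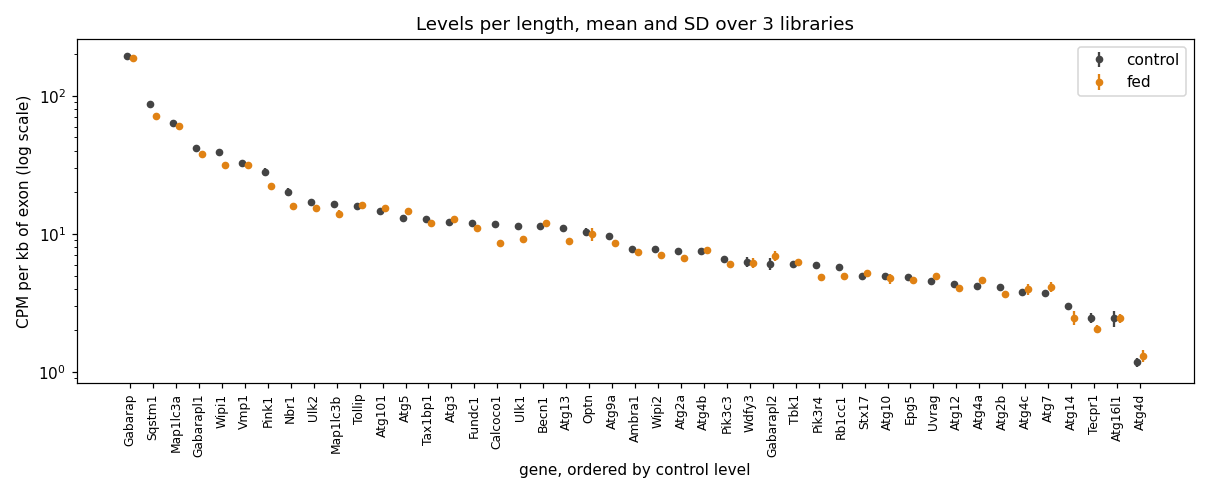
Level of each of the 45 genes in CPM per kb of exon (y axis, log scale), ordered by the control level, as mean and SD of 3 control and 3 fed libraries. Gabarap, Sqstm1 and Map1lc3a stand at the top in both groups, and the distance between control and fed is small beside the distance between genes.

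Reads from overlapping genes could blur some values, since the strand setting of the counting is not given. Exons of 6 members share at least 10% of their bases with another gene. Becn1 shares 43.9% of its exon bases with Cntd1, which had 4 to 14 counts a library. Atg9a shares 32.6% with other genes, among them Ankzf1, which itself fell by 0.30 on the log2 scale (edgeR adjusted p = 0.00489), and Sqstm1 shares 17.3% with Mrnip, which rose by 0.47 to 4.21 CPM (0.00964). Atg4d overlaps Kri1, which was not called (0.68), and the partners of Uvrag and Gabarapl1 were not matched by name in the table. Without these 6 genes, 16 of 39 members were lower and 1 higher, or 41.0% and 2.56% beside 19.0% and 20.5% of all genes tested. The only feature named as a pseudogene of a member, Atg4a-ps, had at most 2 counts a library.

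A second list held 52 other genes of autophagy and its regulation that are not members, of which 45 could be tested. Of these, 15 fell and 8 rose, or 33.3% and 17.8% beside 19.0% and 20.5% of all genes tested. Their median log2 fold change was -0.08. By DESeq2 it was 9 lower and 5 higher. The smallest adjusted p belonged to Bnip3l, a mitophagy receptor, which fell from 137 ± 1.06 to 95.1 ± 6.40 CPM (SD, n = 3; edgeR adjusted p = 1.51e-08). Trp53inp1, a stress protein that binds LC3, fell from 31.2 ± 2.94 to 19.0 ± 1.30 CPM (1.84e-07), and Trp53inp2, which moves from the nucleus to autophagosomes, from 173 ± 4.93 to 134 ± 3.97 CPM (1.98e-07). Bnip3, the relative of Bnip3l, fell from 231 ± 11.7 to 149 ± 11.4 CPM (2.37e-07).

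Some genes linked to LC3-associated phagocytosis are named here after their values were seen. Rubcn, which encodes the Rubicon protein that this process needs, had 48.1, 44.3 and 47.0 CPM in control and 49.7, 47.6 and 43.8 CPM in fed libraries, which overlapped (log2 fold change 0.01 ± 0.053, adjusted p = 0.849). Cybb and Ncf4, genes of the phagocyte NADPH oxidase that macrophages use in the same process, were too low to test. Cybb, the catalytic subunit, had 0, 0 and 1 counts in control and 3, 8 and 5 counts in fed libraries. Ncf4 had 0 counts in every control library and 1, 0 and 1 in fed libraries. Cyba, the small membrane subunit that many cell types express, was not called (adjusted p = 0.427).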

How the data were processed

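Per the submitters' processing notes, the authors processed reads with Trimmomatic 0.36, STAR 2.6.0c, featureCounts (Subread 1.6.1) and MultiQC 1.5 against GRCm38. Their deposited table holds unnormalized whole-number counts for each gene symbol. Strand setting, annotation release and treatment of multi-mapping reads were not given in the sources used here. Per the labels, 200 ng of RNA entered a stranded poly(A) library preparation.

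The counts were fitted by edgeR 4.0.16 in R 4.3.3 (filterByExpr, TMM, robust quasi-likelihood F-test, no replicate block), with p-values adjusted by Benjamini-Hochberg over all 13092 genes tested. Errors beside CPM are SDs, and SEs of log2 fold changes were derived from the F statistic. Alternatives were RLE, upper-quartile and no scaling, other filters, DESeq2 1.42.0, limma-voom (limma 3.58.1), no robust estimation, a block for the replicate number, a threshold of 0.01 on the adjusted p and each library left out. Coordinates and exon lengths are from GENCODE M21 (GRCm38), and promoters from RefSeq (GRCm38.p6).

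The members and lists were chosen with earlier results of these data known. Values in every library are given for the 14 called members with the smallest adjusted p and for a panel of 11 LC3, conjugation and core genes. Of the second list, the 4 called genes with the smallest adjusted p are named. Its called genes Tfeb, Tfe3, Foxo1 and Foxo3 are named as well, beside the promoter motifs. Nothing in the labels tells whether the libraries are from different animals or cultures, so each p-value covers the spread among these libraries alone, which may be technical. Libraries of a group differed by more than sampling noise. Some genes of the second list are not reported here.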

Additional observations from a re-analysis of the deposited data

How the results depend on the processing

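The number of members lower in fed cells, 19, ranged from 14 at an adjusted p under 0.01 to 19, and was 16 to 18 with any single library left out. The number higher, 1, was 4 with library totals only, 2 with no filter on low counts, 0 by DESeq2, 0 at an adjusted p under 0.01, and 0 to 3 with any single library left out. With the replicate number as a replicate block it was 3, since Uvrag (adjusted p = 0.0388) and Gabarapl2 (0.0212) were then called too. Nothing in the labels pairs the numbers. Same-numbered libraries correlated in their deviations from the group means at 0.10, 0.02 and 0.13 and differently numbered ones at -0.12 to 0.03, and control replicate 2 correlated best with fed replicate 1. The calls of 13 of the 19 lower members held under all 15 alternative fits. No called member changed direction. Among members not called, leaving out 1 library turned the direction of Atg10 (-0.114 to 0.0025), Atg16l1 (-0.0539 to 0.118), Atg4b (-0.0101 to 0.0568), Atg4c (-0.0021 to 0.125), Optn (-0.116 to 0.0273) and Wdfy3 (-0.0981 to 0.0219); the values are the lowest and highest log2 fold changes. The count over all genes, 5175, was 3615 at an adjusted p under 0.01 and 3963 by DESeq2. Only gene expression was measured, so amounts of protein and of lipid-bound LC3 were not analysed here.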
